A study of Mus musculus with 4 samples.

Results

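Small nucleolar RNAs (snoRNAs) and small Cajal body RNAs (scaRNAs) were read in 4 RNA-seq libraries of C8-D1A, a mouse cell line labelled as astrocytes. The members are the rows with the biotype snoRNA or scaRNA and a level of 1 FPKM or more in 2 or more libraries. FPKM is fragments per kilobase of gene, scaled to the fragments mapped in the library. The members were 167 of 315 such rows, in a table of 24169 genes. The members were chosen by their FPKM, so their levels are a description. The rule did not use the difference between the groups. The control group held 2 untreated libraries. The MBP group held 2 libraries of cells given 1 mM MBP for 24 hours, where MBP is an added agent the labels do not spell out and not the gene Mbp. The labels do not say whether each library was a culture of its own, so p-values measure only the spread between these libraries. In such bulk samples, a change in the cells that make up a culture and a change in RNA per cell cannot be told apart.

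Box C/D snoRNAs carry a C box and a D box, bind fibrillarin and guide the methylation of ribose in ribosomal RNA. Box H/ACA snoRNAs fold into hairpins, end in an ACA box, bind dyskerin and guide the change of uridine to pseudouridine. scaRNAs guide the same changes on spliceosomal RNAs in Cajal bodies. Most mammalian snoRNAs lie in introns of longer genes, their hosts, and are cut from the spliced-out intron. A few have their own promoters.

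The sequences below are the members on which the levels and the comparison turn, from GENCODE mouse release 21 (GRCm38), 5′ to 3′. The letters are those of the DNA, with T for U. Capitals mark a C box (TGATGA in the first 20 bases), a D box (CTGA in the last 15 bases) or an ACA box (ACA exactly 3 bases from the 3′ end). The C/D members come first: Gm24463, at chr9:89075336-89075407 (+), had the highest mean level and is shown after its values were seen. Snord104 at chr11:106500993-106501062 (+) had the highest level among rows with a Snord symbol, and Snord8 at chr14:52209785-52209894 (-) was among the members of lowest p.
Gm24463: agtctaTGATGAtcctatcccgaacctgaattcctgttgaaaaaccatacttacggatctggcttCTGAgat
Snord104: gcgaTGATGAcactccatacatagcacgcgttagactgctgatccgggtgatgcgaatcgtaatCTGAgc
Snord8: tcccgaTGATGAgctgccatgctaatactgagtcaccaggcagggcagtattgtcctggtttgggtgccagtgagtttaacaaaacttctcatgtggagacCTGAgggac

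The H/ACA members below are longer. Snora23 at chr7:110046364-110046547 (+), Snora30 at chr7:127527874-127528003 (+) and Gm22806 at chr13:51648199-51648334 (+) were among the members of lowest p that were higher in MBP. Gm23442 at chr17:35162563-35162696 (-) and Gm23297 at chr7:143531394-143531520 (-) were among those that were lower. Gm25117 at chr10:111481493-111481636 (+) has no class by symbol or match, ends in an ACA box and is shown after its values were seen, as the member of second highest mean level.
Snora23: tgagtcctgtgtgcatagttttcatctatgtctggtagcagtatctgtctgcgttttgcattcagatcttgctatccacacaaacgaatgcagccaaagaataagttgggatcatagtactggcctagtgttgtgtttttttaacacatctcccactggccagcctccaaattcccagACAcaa
Snora30: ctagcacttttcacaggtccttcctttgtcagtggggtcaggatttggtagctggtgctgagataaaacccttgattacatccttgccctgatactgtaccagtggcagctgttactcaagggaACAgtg
Gm22806: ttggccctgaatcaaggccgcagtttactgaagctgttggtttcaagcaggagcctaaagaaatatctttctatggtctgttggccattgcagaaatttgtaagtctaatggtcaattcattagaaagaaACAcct
Gm23442: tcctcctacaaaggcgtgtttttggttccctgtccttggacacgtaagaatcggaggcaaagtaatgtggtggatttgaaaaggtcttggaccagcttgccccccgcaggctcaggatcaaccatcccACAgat
Gm23297: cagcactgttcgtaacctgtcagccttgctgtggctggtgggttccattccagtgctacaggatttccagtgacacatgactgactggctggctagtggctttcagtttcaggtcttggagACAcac
Gm25117: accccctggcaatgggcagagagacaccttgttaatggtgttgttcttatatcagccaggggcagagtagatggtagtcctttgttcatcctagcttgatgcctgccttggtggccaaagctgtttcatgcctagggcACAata

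By symbol, 12 members were Snora, 28 Snord and 4 Scarna, and 123 carried another symbol, mostly a predicted one (Gm). With the table's best nucleotide match added, 44 were C/D, 65 H/ACA and 15 scaRNA by biotype, and 43 stayed without a class. C/D members had a median length of 80.5 bases, H/ACA members 132 and scaRNAs 140. A D box stood in 88.6% of C/D members, and C and D boxes together in 47.7%. An ACA box stood in 67.7% of H/ACA members and in 0% of C/D members. Among all 1558 annotated snoRNA and scaRNA genes, 19.9% held both C and D boxes and 19.3% the ACA box. A match says only that these letters are in the window.

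The 148 rows under the filter held 24 with 0 reads in every library. Just inside it lay Gm23946, with a second-highest FPKM of 1.04, and just outside lay Gm24313, with 0.957. Of the members, 7 passed only through the libraries of 1 group, and 11 had 0 reads in at least 1 library. The members rest on few reads: the median was 11 reads per library, 77 members had a mean under 10 and 16 had at least 50. A run of 50 bases was shared with another annotated gene by 33 members, among them Gm24463, Snora30, Gm22806 and Gm23442, and their reads could have been split between copies or assigned elsewhere. A gene of the other strand overlapped 5 members, Snora23 among them, and whether counting used strand is not given in the sources used here.

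Depth was 23571000 to 25907000 reads per library. Of the markers of the labelled cell type, S100b, Sox9, Glul and Vim were tested. Gfap, Aqp4, Slc1a2, Slc1a3, Aldh1l1 and Gja1, which define astrocytes in tissue, were at most 0.282 FPKM in any library. The oligodendrocyte lineage factor Sox10 stood at 99.97 and 96.1 FPKM in control and 89.6 and 87.8 in MBP. Of the neuron markers, the tubulin Tubb3 was at 33.2, 30.8, 23.8 and 23.3 FPKM. Snap25 and Syt1 were at most 0.0231 FPKM in any library, and Rbfox3 has no row, so Tubb3 alone does not mark neurons here. The part of Tubb3 in any difference of the members was not tested.

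Member levels spanned 0.558 to 89.2 FPKM as means over the 4 libraries, with a median of 4.21. Gm24463, whose best match is SNORD50, held 63.9 and 107 FPKM in control and 85.8 and 99.7 in MBP. Its 2 control libraries enclosed both MBP libraries. Gm25117, in Nap1l1, held 56.2 and 51.9 FPKM in control and 69.0 and 67.8 in MBP, so both MBP libraries were the higher ones. The log2 fold change of Gm25117 was 0.34 with a standard error (SE) of 0.06. SEs here and below come from a fit that takes its spread in part from genes of like level. They can be too small for members, which mostly hold fewer reads than such genes.

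Snord104 held 48.1 and 73.3 FPKM in control and 46.5 and 37.5 in MBP. The groups did not overlap, but the control libraries lay further apart than the nearest control and MBP libraries. The scaRNA Gm22009, in Kpna4, held the most reads of any member, with 42.9 and 39.1 FPKM in control and 71.0 and 42.7 in MBP. Only MBP replicate 1 of Gm22009 was high, while replicate 2 fell between the controls. Gm24494, a SNORD45 match in Rabggtb, held 46.1 and 49.8 FPKM in control and 44.3 and 44.3 in MBP.

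**Figure D1:**
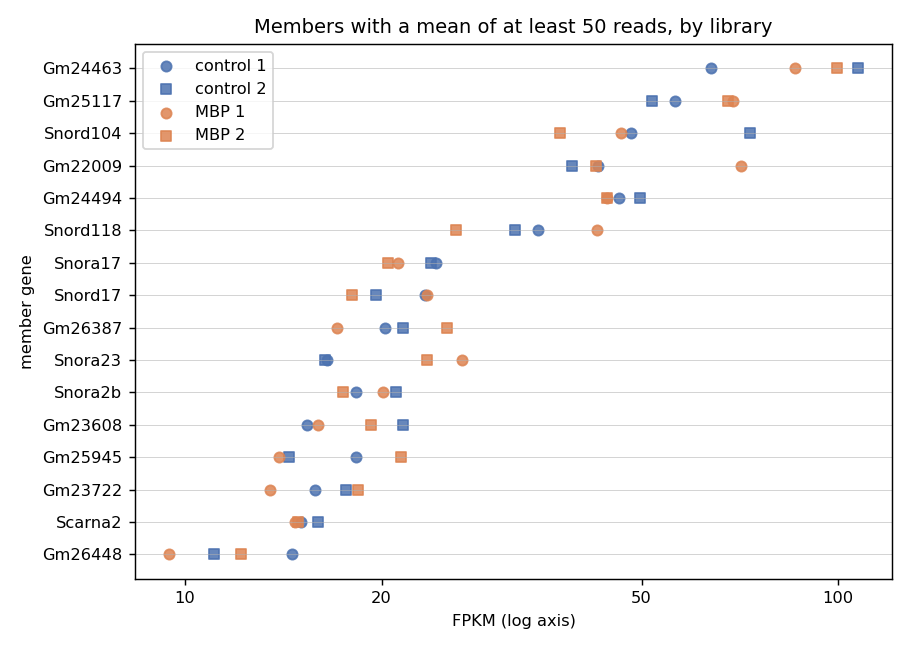
FPKM (log axis) of the 16 members with a mean of at least 50 reads, 1 point per library, blue for control and orange for MBP. Gm25117 and Snora23 have both MBP libraries to the right of both control libraries, and 4 members have both to the left. In the other 10 the groups overlap. Over all genes tested, 21.3% had MBP higher without overlap and 23.5% had it lower.

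Among RNAs with names of their own, Snord118 (U8), which takes part in the maturation of large-subunit ribosomal RNA, held 34.7 and 32.1 FPKM in control and 42.7 and 26.0 in MBP. Its MBP libraries lay on opposite sides of both controls, and the log2 fold change was 0.00 with an SE of 0.23. Snord17 held 23.3, 19.6, 23.5 and 18.002 FPKM in the same library order. Snora17 held 24.3 and 23.8 FPKM in control and 21.2 and 20.5 in MBP. Snord13 (U13), which acts on small-subunit ribosomal RNA, had 1 and 8 reads in control and 5 and 6 in MBP, too few to compare. Snora73b (U17), needed for cleavage of the ribosomal RNA precursor, had 7, 14, 12 and 17 reads. Gm26448, a SNORA73 match in Rpsa, had 14.6 and 11.1 FPKM in control and 9.46 and 12.2 in MBP. Snord32a stayed under the filter, with 1 read in each control library and 0 in each MBP library. The other 11 of 15 well-known RNAs that were listed have no row under their symbols in the table.

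The 4 rows with a Scarna symbol differed in level. Scarna2 held 15.1 and 16.0 FPKM in control and 14.7 and 14.9 in MBP, and has no host in the table. Scarna6 in Atg16l1 held 6.82, 6.56, 5.51 and 10.3 FPKM, with the MBP libraries lowest and highest. Scarna13 held 3.58, 3.39, 3.34 and 3.23 FPKM. Scarna8 in Haus6 held 2.51, 2.27, 0.956 and 2.95 FPKM on a mean of 7 reads. In this order from Scarna2 down to Scarna8, no library of 1 row overlapped those of its neighbour. Scarna8 and Scarna13 came closest, at 2.95 against 3.23 FPKM.

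The comparison of MBP with control asks whether the agent moved these RNAs, and no member passed the test. In limma with Benjamini-Hochberg adjustment, 0 of 167 members were called, as were 0% of all 12403 genes, and the lowest adjusted p of a member was 0.392. limma-voom on recovered reads called 0 of the 90 members with enough reads, against 0.131% of 14544 genes, with a lowest adjusted p of 0.230. limma with its spread set by reads called 0 members, against 0.0242% of genes.

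The median log2 fold change was 0.02 over the members and -0.0048 over all genes (87 members above 0 and 80 below). It was -0.05 for C/D members, 0.00 for H/ACA members, 0.22 for scaRNAs and 0.05 for members without a class. The share of all reads on members was 0.0156% and 0.0163% in control and 0.0170% and 0.0168% in MBP, a ratio of 1.06. Both MBP libraries held the larger share, and the exact two-sided permutation test gave p = 0.3333, the smallest that 2 against 2 allows. Without Gm22009 the ratio was 1.03 and the exact p was 0.667. As a share of summed FPKM, members held 0.514% and 0.549% in control and 0.536% and 0.567% in MBP. On that measure the groups overlapped, and the exact permutation test gave p = 0.667.

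At unadjusted p under 0.05, 24 members were higher in MBP (14.4%, against 3.81% of all genes) and 15 lower (8.98%, against 5.87%). These shares are not read as a result, because the fit takes its spread from genes of like level that hold far more reads. In simulated libraries where some genes were changed, the unchanged snoRNA and scaRNA rows had such p-values about as often as here. That simulation assumed the same spread beyond counting error for every gene, which was not estimated from these libraries. The 4791 genes outside the short RNA biotypes at 2.10 to 8.90 FPKM, the middle range of the members, had a median of 495 reads and a median within-group SD of 0.08 on the log2 scale. The members had 11 reads and an SD of 0.33. With the spread set by reads, 14 members were higher (8.38%, against 4.85%) and 10 lower (5.99%, against 6.96%). limma-voom gave 8 higher (8.89% of 90, against 5.3%) and 4 lower (4.44%, against 6.16%). The groups did not overlap for 34 members higher in MBP (20.4%, against 21.3% of all genes) and for 28 lower (16.8%, against 23.5%). These counts include the 7 members that passed the filter only through the libraries of 1 group, whose groups cannot overlap. Gm26368 and Snord65 are such members and also count among the 24.

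**Figure D2:**
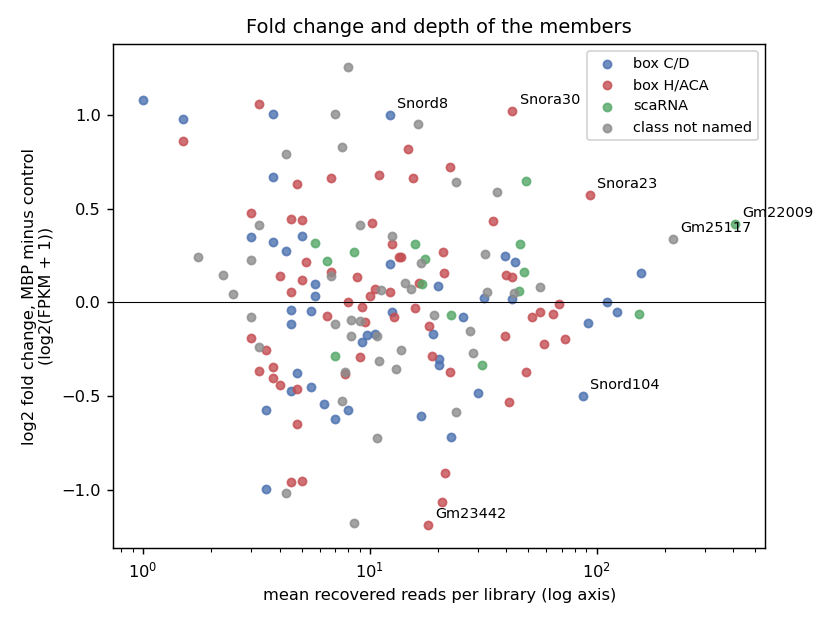
Log2 fold change of each member on the log2(FPKM + 1) scale, MBP minus control, against its mean recovered reads per library (log axis), 1 point per member, coloured by class. The spread is widest among members of few reads. Snora23 (mean 93.5 reads) and Snora30 (42.5 reads) stand above 0 at 0.57 and 1.02.

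Of the 24 members higher in MBP at unadjusted p under 0.05, 9 were H/ACA, as were 65 of all 167 members. Snora23, in an intron of the nuclear import gene Ipo7, held 16.5 and 16.4 FPKM in control and 26.5 and 23.5 in MBP. These values stand on 74 and 71 reads in control and 117 and 112 in MBP. The log2 fold change of Snora23 was 0.57 with an SE of 0.07 (limma adjusted p = 0.392; limma-voom adjusted p = 0.323). Snora30, in the chromatin remodeller gene Srcap, held 6.95 and 10.1 FPKM in control and 18.6 and 17.5 in MBP, with a log2 fold change of 1.02 and an SE of 0.16. Its limma-voom adjusted p of 0.230 was the lowest of the members in that fit. Srcap itself had a log2 fold change of 0.14.

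Gm22806, a SNORA2 match in the cell-cycle gene Cks2, held 2.72 and 3.12 FPKM in control and 5.83 and 5.96 in MBP. Snora2b, of 92.0% identity to Gm22806, held 18.3 and 21.1 FPKM in control and 20.1 and 17.5 in MBP, with the groups interleaved. Gm22154 and Gm25788, both SNORA55 matches in Pabpc4, are identical at 127 of 131 aligned bases. Gm22154 held 2.51 and 2.27 FPKM in control and 4.14 and 4.71 in MBP, while Gm25788 held 1.88, 1.94, 1.91 and 2.65 FPKM. The difference between the 2 copies was not tested. Gm25406 in Lclat1 held 3.52, 4.44, 9.54 and 7.72 FPKM.

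Snord8, in the chromatin remodeller gene Chd8, held 2.24 and 3.09 FPKM in control and 5.31 and 7.37 in MBP, on 6, 8, 14 and 21 reads. Gm26368, a SNORA70 match in Prps2, held 0.348 and 0.360 FPKM in control and 1.42 and 2.29 in MBP, and passed the filter only through MBP. Snord65 had 0 and 0 reads in control and 2 and 2 in MBP, so no fold is given.

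Of those lower in MBP, Gm23442 had the lowest p of any member. This SNORA38 match lies in Prrc2a and held 8.28 and 7.92 FPKM in control and 3.43 and 2.59 in MBP, on 27, 25, 11 and 9 reads. Its log2 fold change was -1.19 with an SE of 0.12 (limma adjusted p = 0.392, limma-voom adjusted p = 0.255). This SE is drawn in part from genes of like level with far more reads, and can be too small here. Gm23297, a SNORA54 match in the histone chaperone gene Nap1l4, held 10.7 and 8.02 FPKM in control and 3.62 and 5.47 in MBP. AF357399, a SNORA40 match in the ribosomal protein gene Rps16, held 15.8 and 16.6 FPKM in control and 12.4 and 9.57 in MBP. Gm23245, in the chaperonin gene Cct6a, held 4.56, 4.09, 2.16 and 2.29 FPKM. The others of this set were Gm22200 in Hspa9 (log2 fold change -0.58), Snord73a in Rps3a1 (-0.45), Gm22581 (-0.65) and Gm22771 in Tsr1 (-0.47).

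The direction of the median turned when single libraries were left out. From 0.02 it became -0.04 without control replicate 1 and -0.08 without MBP replicate 2, and 0.02 and 0.17 without control replicate 2 and MBP replicate 1. It also turned with GC correction, to -0.0052. Against each member's own mean, the median member lay at -0.03 in MBP replicate 1 and 0.15 in MBP replicate 2, and at -0.03 and 0.03 in the control libraries. Replicate 2 exceeded replicate 1 of MBP in 100 of 167 members, and in 6919 of all 12403 genes. By class this held for 31 of 44 C/D and 41 of 65 H/ACA members, but for 7 of 15 scaRNAs and 21 of 43 members without a class. Among the 16 members of at least 50 reads it held for 7. H/ACA members lay at -0.03 and 0.17 in the MBP libraries, and C/D members at -0.12 and 0.15. For scaRNAs, control replicate 1 was the lowest at -0.14, with control replicate 2 at 0.00 and the MBP libraries at 0.01 and 0.08. Of the 15 scaRNAs, 11 had a log2 fold change above 0. Rows of snRNA, miRNA and misc_RNA biotype lay at 0.03 and 0.10 in the MBP libraries and at 0.00 and -0.04 in control. At unadjusted p under 0.05, 33 members were higher and 23 lower without control replicate 1, where 8.39% and 9.78% of all genes were. Without control replicate 2 there were 32 and 16, against 3.28% and 4.36% of all genes. Without MBP replicate 1 there were 33 and 27, against 2.12% and 2.73%. Without MBP replicate 2 there were 26 and 35, against 2.14% and 3.60%.

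**Figure D3:**
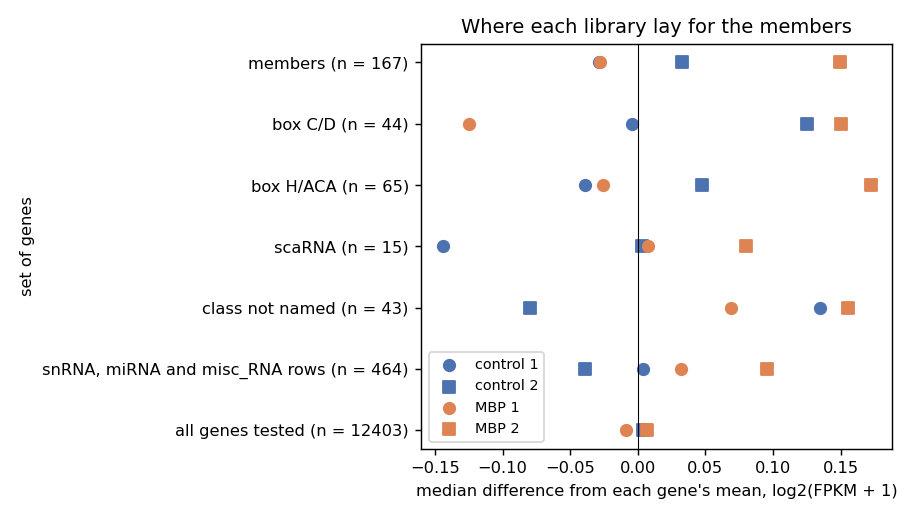
For each set of genes, the median over its genes of log2(FPKM + 1) minus the gene's mean over the 4 libraries, 1 point per library. MBP replicate 2 has the highest median in the members (0.15), in each class and in the other short rows. Over all genes the 4 libraries lie between -0.01 and 0.01. Gene by gene, MBP replicate 2 was above replicate 1 in 31 of 44 C/D and 41 of 65 H/ACA members. In scaRNAs it was above in 7 of 15, and in members without a class in 21 of 43.

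Of the 167 members, 150 lay within 126 host genes of the table, and for 143 of these the host codes for a protein. An exon of the host overlapped 5 members, where reads of member and host may not be separable. The 17 members without a host in the table had a median level of 6.27 FPKM, and 8 of them had a mean of at least 10. Among the 150, the median member stood at 19.6% of the FPKM of its host. Such ratios are of FPKM and not of mature RNA molecules. Reads from unspliced host RNA were not told apart from those of the member, and the recovery of short RNAs was not measured. Of the 150, 16 were above their host and 75 under 0.2 of it. Across the 146 pairs whose host was tested, the log2 levels of member and host had a Pearson r of 0.18. This is a description over genes that share 4 libraries. The 20 members in 14 ribosomal protein genes stood at a median of 1.496% of their host, against 26.7% in other hosts. Their own level was 3.31 FPKM, against 4.25 in other hosts. Members in hosts under 10 FPKM (41) had a median level of 3.23, and members in hosts of at least 100 FPKM (18) had 3.47. The filter sets the low end of member levels, and its part in how member and host levels relate was not tested. Of the members over 5 times their host, Snord89 held 8.96, 6.56, 4.17 and 5.26 FPKM in Gm15832, a host at 0.507 FPKM. The other was Gm24401, with a mean of 3.25 reads. Rpsa, at 653 FPKM, held Gm26448 and also Snora62, which stood at 1.38, 3.13, 4.76 and 2.07 FPKM.

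**Figure D4:**
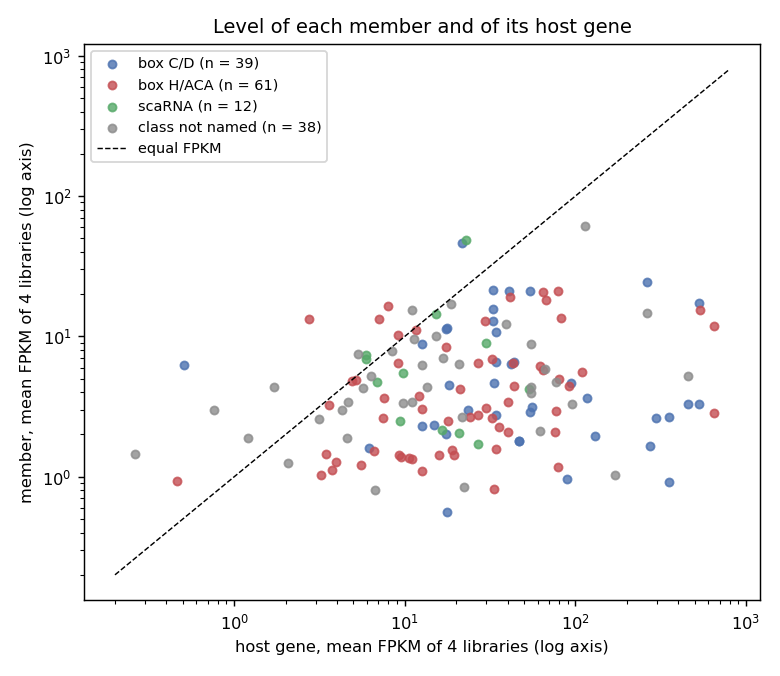
Mean FPKM of 150 members against the mean FPKM of their host, both on log axes, coloured by class, with a dashed line at equal FPKM. Member levels stay in the same range across hosts of low and high level, and 16 members lie above the line. The filter sets the low end of that range, since rows under it are not drawn.

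The fold changes of hosts lay closer to 0 than those of members. For the 146 pairs whose host was tested, the log2 fold changes had an SD of 0.49 in members and 0.11 in hosts. They had the same sign in 82 of 146 pairs, and their Pearson r was 0.10. From 1 control and 1 MBP library at a time, r was 0.0043 and 0.029 with control replicate 1 and 0.18 with control replicate 2 and either MBP library. In the 11 pairs whose member had a mean of at least 50 reads, r was 0.78, and 0.73 in the 9 left after Snora23 and Snora2b, whose hosts lay furthest from the median, were set aside. That subset was chosen after the data were seen, and its pairs share the same 4 libraries. Of these 11, Snora23 (0.57, host Ipo7 0.12), Gm22009 (0.42, host Kpna4 0.05) and Gm25117 (0.34, host Nap1l1 0.07) had the highest log2 fold changes.

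**Figure D5:**
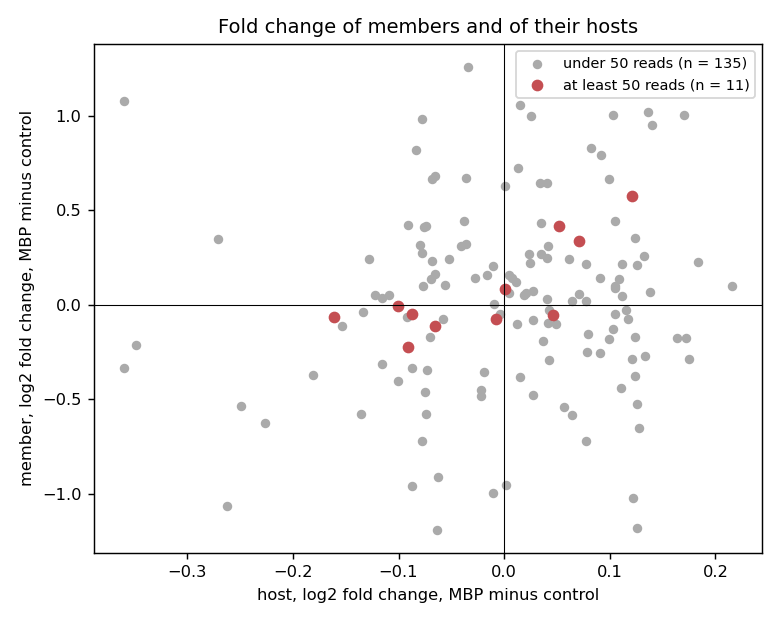
Log2 fold change, MBP minus control, of 146 members against that of their host, with the 11 members of at least 50 reads in red. Red points run from lower left to upper right (r = 0.78), while the 135 grey points spread further along the member axis than along the host axis.

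Within 1 host, fold changes of both signs occurred. In Nop58, which itself codes for a C/D core protein, Snord70 held 9.91, 7.80, 4.32 and 13.3 FPKM, Gm26287 held 3.04, 7.33, 3.61 and 11.0, and Snord11 held 2.93, 2.53, 1.49 and 2.30. In Wdr43, Gm22858 and Snord53 had log2 fold changes of 0.09 and -0.05, and Snord92 had 0.10. In Ubap2, Gm24837 held 5.58 and 6.81 FPKM in control and 4.12 and 0.953 in MBP, with a log2 fold change of -1.18. Gm23090 and Gm22888, also in Ubap2, had -0.53 and 0.21. With 1 library left out, Gm24837 ranged from -1.88 to -0.48, Gm23090 from -0.94 to -0.11 and Gm22888 from -0.24 to 0.66. The fold changes of Gm22858, Snord53, Snord92, Snord70 and Gm26287 crossed 0 in such fits too, so their signs are not settled.

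The genes of the proteins that work with these RNAs did not pass the test either. All 25 listed genes were measured and 0 were called (limma, lowest adjusted p 0.503), with 9 above 0, 16 below and a median log2 fold change of -0.04. At unadjusted p under 0.05, 0 were higher and 1 was lower. That 1 was the C/D assembly factor Znhit3, at 2.94 and 3.50 FPKM in control and 2.29 and 2.39 in MBP. The methyltransferase gene Fbl held 20.6, 24.0, 21.1 and 21.3 FPKM. Dkc1, for the pseudouridine synthase dyskerin, held 22.6, 20.2, 23.4 and 22.99. Nop58 held 12.3 and 11.9 FPKM in control and 13.1 and 13.4 in MBP, with a log2 fold change of 0.12 and an SE of 0.06. Nhp2, of the H/ACA core, held 50.1, 45.6, 45.4 and 43.6 FPKM.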

How the data were processed

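The values are FPKM for 24169 genes in a single table, as deposited. Ribosomal RNA was depleted and a directional kit was used, per the labels' protocols. Per the submitters' processing notes, bcl2fastq and HISAT2 were used with GRCm38. Not given in the sources used here are tool versions, the counting program and its strand setting.

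Reads were recovered as FPKM times gene length. For members and other short single-exon rows, 100% of values under 1000 reads were whole within 0.05. Depth was 23571000 to 25907000 reads. Without molecular identifiers, reads are not independent molecules.

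Values were tested as log2(FPKM + 1) for the 12403 genes that reached 1 FPKM in 2 or more libraries. The test was limma (version 3.58.1, R version 4.3.3), two-sided, MBP minus control, with eBayes taking its spread trend from the level. Benjamini-Hochberg adjustment ran over these genes, with a threshold of 0.05. Among the unchanged rows of simulated libraries, this fit gave those of few reads small unadjusted p-values more often than the nominal rate. It was kept as designed. A fit with its spread trend on mean reads was added after that check and gave such p-values less often, though still above the nominal rate. The limma-voom fit, on genes with a mean of at least 10 recovered reads, had been planned. Other alternatives were pseudocounts of 0.1 and 0.01, filters, scalings, GC correction by loess (span 0.5) and leaving out each library.

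GENCODE mouse release 21 (GRCm38) held all 167 members at the table's coordinates and gave their sequences. Where the symbol names no class, it came from the table's best nucleotide match, a step chosen after the table was seen. A host is the gene of the table whose span holds the member on the same strand.

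Members and lists were chosen with earlier results of these data known. Members are named where they had the highest level of their symbol class, the lowest p in each direction, a Scarna symbol, 1 of the 4 hosts with the most members, a level far from the host's, or are well known. Others are named as chosen after their values were seen. The members of 1 of these hosts are not reported here.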

Additional observations from a re-analysis of the deposited data

How the results depend on the processing

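No paired analysis was run, because the labels do not state which control and MBP libraries belong together. No alternative called a member or a snoRNP protein gene. The counts of members at unadjusted p under 0.05 (24 higher, 15 lower) became 10 and 9 with no filter (5.99% and 5.39% of members, against 3.84% and 4.77% of all genes), 15 and 9 with FPKM of at least 5 (18.99% and 11.4%, against 3.80% and 7.56%), and 8 and 4 in limma-voom. With the spread set by mean reads, 14 were higher. Leaving out 1 library gave 26 to 33 higher, 16 to 35 lower and a median log2 fold change of -0.0845 to 0.17, the lone library of a group being taken to vary like the other group. GC correction gave a median of -0.01; over 12389 genes, fold change and GC content had a Spearman rho of -0.44. The median of other short RNA rows became 0.10 with FPKM of at least 5, 0.0926 as TPM, 0.12 in limma-voom and 0.0103 to 0.13 with 1 library left out. The r of members and hosts was 0.02 at a pseudocount of 0.1 and 0.78 in members of at least 50 reads. Of 670 values of 44 named members, 642 kept their sign and side of the threshold. Settings that changed only the filter or the modelling of spread left the fold changes identical, so signs could not turn there. The count is therefore no measure of robustness. Snord118 reversed at pseudocounts of 0.1 (-0.00074) and 0.01 (-0.00086), in limma-voom (-0.0136) and with GC correction (-0.0276), and Scarna2 with GC correction (0.0666). The cause was not tested. With 1 library left out, log2 fold changes crossed 0 for 17 members: Gm23969 (-0.19 to 0.89), Gm26158 (-0.20 to 0.65), Gm26287 (-0.33 to 1.04), Snora73b (-0.0351 to 0.66), Snord13 (-0.45 to 1.16), Snord17 (-0.24 to 0.13), Gm22858 (-0.10 to 0.28), Gm24401 (-0.79 to 0.31), Snora2b (-0.16 to 0.0339), Snord118 (-0.35 to 0.35), Snord53 (-0.12 to 0.0214), Scarna8 (-0.79 to 0.22), Snora62 (-0.0290 to 0.88), Snord70 (-0.88 to 0.55), Gm22888 (-0.24 to 0.66), Scarna6 (-0.24 to 0.56) and Snord92 (-0.48 to 0.68). The median member had 11 reads per library, which limits the precision of its values.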
